A study of Mus musculus with 7 samples.

Results

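The genes that encode the proteins of the cytosolic ribosome were examined in dorsal skin of aged mice treated with ABT-263 (navitoclax, an inhibitor of anti-apoptotic BCL-2 proteins) or with its vehicle, DMSO. Members were the protein-coding genes whose symbol is Rpl or Rps with a number, together with Rplp0, Rplp1, Rplp2 and Rpsa; pseudogenes and the Rps6k kinases were left out. This gave 84 of the 55450 genes in the counts table, of which 52 belong to the large subunit and 32 to the small subunit. Counted among them were 7 paralogs, which are genes related to another member: Rpl3l, Rpl7l1, Rpl10l, Rpl22l1, Rpl36al, Rpl39l and Rps27l. All mice were wild-type C57BL/6 males of 24 months. The DMSO group held 4 mice (480, 481, 482 and 483) and the ABT-263 group 3 mice (476, 477 and 478), with 5 µM ABT-263 or DMSO alone placed on clipped and depilated skin under a semi-occlusive dressing for 5 days. One polyA library was made per mouse from homogenized whole skin, so that fewer cells of a type and less RNA per cell cannot be told apart. Values for single mice are given throughout in the order 480, 481, 482, 483 for DMSO and 476, 477, 478 for ABT-263.

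Each ribosome has a small subunit, which reads the mRNA, and a large subunit, which joins amino acids and lets the new chain leave through a tunnel. Each protein is present in a single copy per ribosome apart from the paired acidic stalk proteins, so cells make the set in matched amounts. Most of these mRNAs begin with a terminal oligopyrimidine (TOP) tract, a run of C and T bases at the transcription start through which mTORC1 signalling controls their translation. The genes are short and highly transcribed, and the mouse genome holds many intronless copies of their mRNAs, called processed pseudogenes.

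RefSeq promoters on GRCm38.p6, reaching from 250 bases before to 50 bases after the annotated start, were found for 64 of the 84 members (76 promoters in all). In the 30 bases centred on the start, 28 of the 76 member promoters (36.8%) held an unbroken run of at least 8 C or T bases on the gene's strand, against 12.003% of all 32851 promoters. The letters CTTCCG on either strand stood in 60.5% of the member promoters and in 16.9% of all promoters over the whole 300 bases, and TATAAA in 9.21% and 13.6%. The windows below belong to 5 members whose difference between the treatments passed the test whichever mouse was left out. They are printed 5′ to 3′ with the longest pyrimidine run in capitals, and the start is the first base of the right-hand 15 bases.
Rpl7a (rose; chr2:26910792-26910821, plus strand): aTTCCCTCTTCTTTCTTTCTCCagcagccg
Rps7 (rose; chr12:28635939-28635968, minus strand): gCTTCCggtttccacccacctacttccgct
Rpl27a (fell; chr7:109519180-109519209, plus strand): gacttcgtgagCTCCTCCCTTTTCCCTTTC
Rps10 (fell; chr17:27635230-27635259, minus strand): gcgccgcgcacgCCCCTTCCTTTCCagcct
Rpsa (fell; chr9:120127751-120127780, plus strand): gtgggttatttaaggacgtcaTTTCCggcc
Long and short runs stood in both directions of change: 21 bases in Rpl7a and 5 in Rps7, both of which rose, and 19 in Rpl27a, 13 in Rps10 and 5 in Rpsa, which fell.

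In ABT-263-treated skin, 20 ribosomal protein genes fell and 5 rose, and 58 of those tested did not pass the test. Levels are CPM, the counts of a gene per 1000000 counts of the library after scaling by the trimmed mean of M values (TMM), and differences were tested with the quasi-likelihood test of edgeR, two-sided, with Benjamini-Hochberg adjustment over all 17959 genes that passed the filter on low counts and a threshold of 0.05. Of the 84 members, 83 passed that filter. Rpl10l, a paralog best known from male germ cells, did not, with 0.0411 CPM in mouse 483 and no count in the other 6 mice. Of the 83, 25 were called, 5 higher and 20 lower, against 24.2% of all genes tested (12.4% higher and 11.7% lower). The members called lower made up 24.1% and those called higher 6.02%. Among the 1332 protein-coding genes at least as abundant as the median member, 21.2% were called lower and 6.68% higher, close to the members' shares. These genes include the more abundant members. The median log2 fold change was -0.36 over the members (61 negative and 22 positive) and 0.00 over all genes tested. The groups did not overlap in 49 members, 42 lower and 7 higher in every ABT-263-treated mouse, and 59.0% of members were thus apart against 37.1% of all genes tested.

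Both subunits held few rises and more falls, and the difference between them was not tested. In the large subunit 4 of 51 members rose and 12 fell, with a median log2 fold change of -0.34. In the small subunit 1 of 32 rose and 8 fell, with a median of -0.39. Members of both directions stood in both subunits, as the plot of log2 fold changes shows.

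**Figure D1:**
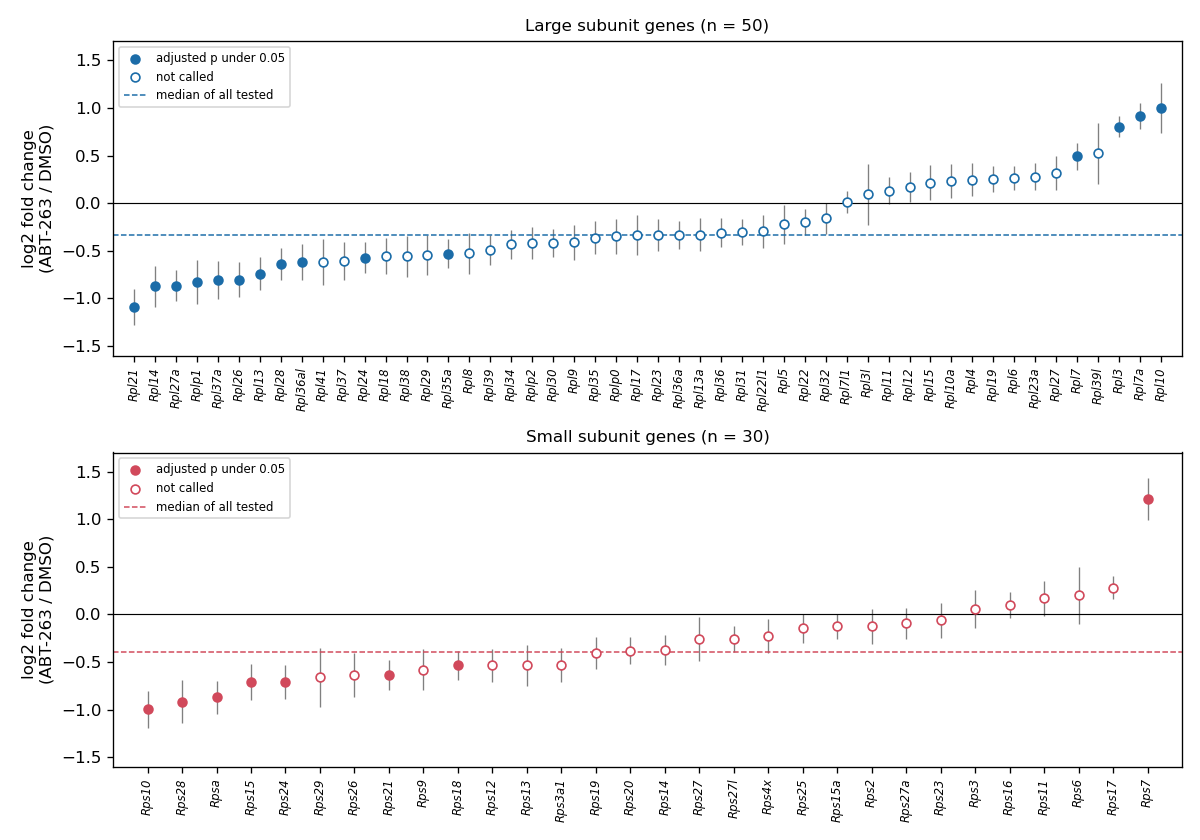
Log2 fold change of 80 of the 83 tested members (y axis, ABT-263 over DMSO) with its standard error (bars), large subunit above (n = 50) and small subunit below (n = 30), ordered by value. Filled points passed the adjusted threshold of 0.05, open points did not, and dashed lines mark the medians over all tested members of each subunit, -0.34 and -0.39.

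Summed over members, ribosomal protein genes took 3.25%, 3.10%, 2.98% and 2.75% of all counts in the DMSO libraries and 2.42%, 2.6996% and 2.20% in the ABT-263 libraries. Every ABT-263 library was thus below the lowest DMSO library, mouse 477 by little. The mean was 3.02% ± 0.212 (SD, n = 4) after DMSO and 2.44% ± 0.251 (SD, n = 3) after ABT-263. The ratio of large to small subunit counts was 1.16, 1.17, 1.17 and 1.15 after DMSO and 1.11, 1.16 and 1.16 after ABT-263, and the groups overlapped. Mouse 478 had the lowest level of all 7 mice in 59 of the 83 members and mouse 480 the highest in 45. In the heat map this appears as a graded column pattern within each treatment.

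**Figure D2:**
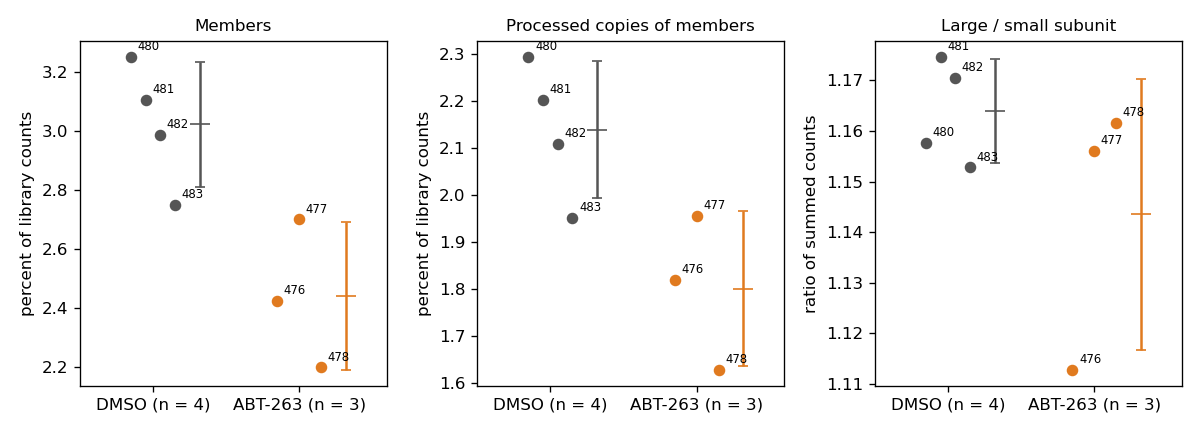
Percent of library counts in members (left) and in their processed copies (middle), and the ratio of large to small subunit counts (right), for each mouse (points, numbered) with mean and SD (bars; n = 4 DMSO, n = 3 ABT-263). The members' share lies at 2.75% to 3.25% after DMSO and 2.20% to 2.6996% after ABT-263, while the copies' share and the ratio overlap between the groups.

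**Figure D3:**
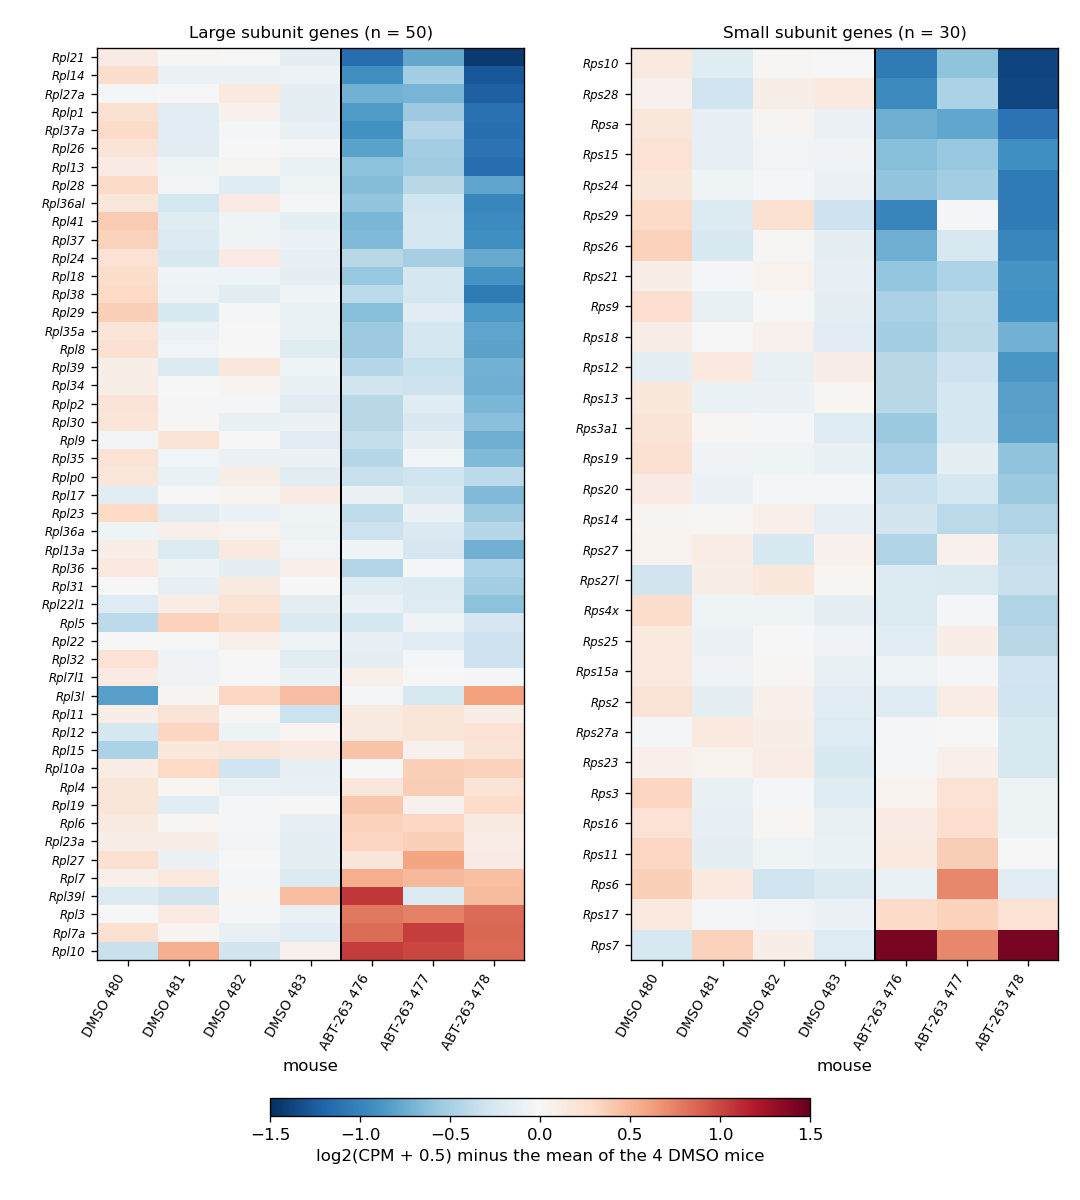
Level of 80 tested members in each mouse as log2(CPM + 0.5) minus the mean of the 4 DMSO-treated mice (colour), large subunit left and small subunit right, ordered by log2 fold change. Most members are lowest in mouse 478, and Rpl3, Rpl7, Rpl7a, Rpl10 and Rps7 are high in all 3 ABT-263-treated mice.

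Libraries held 20344364 to 43562330 counts, with the 3 ABT-263 libraries deeper than the 4 DMSO ones. Thinned to the smallest total, 24 of the 25 calls were kept. Markers of other cell types also differed between the groups, and their part in the members' values was not tested. The summed level of 11 skeletal muscle genes was 44023 to 87610 CPM after DMSO and 31585 to 43841 CPM after ABT-263, with 4 of the 11 called lower. That of 9 macrophage genes was 446 to 1298 against 1539 to 4781 CPM (6 called higher), of 7 neutrophil genes 100.4 to 1822 against 5098 to 8377 CPM (3 higher), of 8 fibroblast genes 4174 to 6025 against 8555 to 14200 CPM (5 higher) and of 6 endothelial genes 154 to 356 against 507 to 656 CPM (6 higher). The summed levels of basal keratinocyte (13873 to 35946 CPM over all mice), suprabasal keratinocyte, T cell, hair follicle and adipocyte genes overlapped between the groups, and no marker in the table was at 0 in all mice.

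The members that rose are core proteins of both subunits. Rpl3, which lies close to the peptidyl transferase centre where peptide bonds form, was at 54.9, 59.7, 53.6 and 50.9 CPM after DMSO and 94.7, 92.4 and 99.1 CPM after ABT-263. The groups were far apart and each was tight. Its log2 fold change was 0.80 ± 0.11 (SE; edgeR adjusted p = 0.00628), a 1.74-fold difference. Rpl7a, of the large subunit, stood at 59.4, 52.2, 46.9 and 45.4 against 90.7, 104.9 and 92.8 CPM (log2 fold change 0.92 ± 0.13, adjusted p = 0.00707). Rps7, of the small subunit, stood at 30.1, 45.6, 37.8 and 31.1 against 96.1, 59.1 and 96.3 CPM (1.21 ± 0.22, adjusted p = 0.0104), with mouse 477 lower than the other two treated mice but above every control. Rpl10, which joins the large subunit late in its maturation, was counted at a far lower level, with 3.56, 6.91, 3.70 and 4.85 against 10.1, 9.73 and 8.72 CPM (1.00 ± 0.26, adjusted p = 0.0289). Rpl7 rose least, with 290.4 ± 30.3 CPM after DMSO (SD, n = 4) and 408.1 ± 13.9 CPM after ABT-263 (SD, n = 3; 0.49 ± 0.14 on the log2 scale, adjusted p = 0.0397). None of the 5 passed the test once reads in processed copies were added, although in all but Rpl3 every treated mouse stayed above every control, as described further on.

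Among the large subunit members that fell, Rpl21 had the largest difference, with 516.9, 479.9, 475.5 and 434.4 CPM after DMSO and 215.8, 280.2 and 175.7 CPM after ABT-263 (log2 fold change -1.09 ± 0.19, edgeR adjusted p = 0.00964). Rpl27a, whose protein sits in the core of the large subunit, stood at 82.7, 84.7, 93.6 and 77.03 against 51.3, 52.0 and 35.9 CPM (-0.87 ± 0.16, adjusted p = 0.0116). In both genes mouse 478 was the lowest, and no treated mouse reached a control. Once reads in processed copies were added, Rpl21 still passed (edgeR adjusted p = 0.0129) and Rpl27a did not (-0.42, adjusted p = 0.0861). Rpl26, which lies at the mouth of the peptide exit tunnel, went from 383.1 ± 39.4 to 219.7 ± 44.2 CPM (-0.80 ± 0.18, adjusted p = 0.0189). Rpl13 went from 163.3 ± 11.8 to 97.7 ± 21.04 CPM (-0.74 ± 0.17, adjusted p = 0.0208). Rpl14 went from 508.0 ± 66.6 to 277.0 ± 74.0 CPM (-0.87 ± 0.21, adjusted p = 0.0248). Rpl24, Rpl28, Rpl35a, Rpl36al, Rpl37a and Rplp1 were also among the large subunit members called lower.

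In the small subunit, Rpsa, which lies near the exit of the mRNA channel and is also known as the laminin receptor, stood at 782, 635, 710 and 652 CPM after DMSO and 416, 403 and 321 CPM after ABT-263 (log2 fold change -0.87 ± 0.17, edgeR adjusted p = 0.0130). Rps10, which is ubiquitinated when ribosomes collide, stood at 43.9, 34.97, 40.1 and 39.8 against 18.7, 26.0 and 14.97 CPM (-0.997 ± 0.20, adjusted p = 0.0132). Treated mice were at about 0.501 of the control level for Rps10 and 0.547 for Rpsa, without overlap. Once reads in processed copies were added, Rpsa still passed (log2 fold change -0.77, edgeR adjusted p = 0.0252) and Rps10 did not (-0.54, adjusted p = 0.0650). The copies of Rps10 averaged 461.7 CPM after DMSO, far above the gene itself. Rps28 went from 34.2 ± 4.50 to 18.1 ± 5.77 CPM (-0.92 ± 0.23, adjusted p = 0.0252). Rps21, from 398.1 ± 25.6 to 256.6 ± 38.3 CPM, and Rps24, from 462.4 ± 40.5 to 283.2 ± 54.2 CPM, also fell (adjusted p = 0.0253 and 0.0268). Rps15 and Rps18 were also among the small subunit members called lower.

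The members grouped by place in the ribosome gave 0 to 4 calls each, in groups of 2 to 14 members. In the stalk, which recruits the elongation factors, Rplp1 fell from 2783 ± 366 to 1568 ± 310 CPM (log2 fold change -0.83 ± 0.23, edgeR adjusted p = 0.0338). Rplp2 (-0.42 ± 0.17, adjusted p = 0.101) and Rplp0, the base of the stalk (-0.35 ± 0.19, adjusted p = 0.199), did not pass the test, although every treated mouse was below every control in both. Rpl5 and Rpl11, which travel with 5S rRNA and bind Mdm2 when ribosome assembly is disturbed, gave no call. Of 8 members around the exit of the peptide tunnel only Rpl26 was called, lower (12.5%). Of 14 in the head of the small subunit, Rps10, Rps15, Rps18 and Rps28 were called, all lower (28.6%). The shares called lower were 11.7% over all genes tested and 24.1% over all members.

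Neither Rpl8 nor the kinase target Rps6 was called. Rpl8, with the highest mean CPM in the large subunit, stood at 3123, 2597, 2669 and 2366 against 1837, 2222 and 1533 CPM (-0.53 ± 0.22, edgeR adjusted p = 0.110). Treated mice lay below all controls. The protein of Rps6 is a substrate of S6 kinase, and its phosphorylation is widely used as a readout of mTORC1 signalling. These mRNA counts do not show phosphorylation. Rps6 mRNA was counted at only 7.32, 6.28, 4.47 and 4.76 CPM after DMSO and 5.18, 9.53 and 4.96 CPM after ABT-263 (0.20 ± 0.30, adjusted p = 0.654), and the groups overlapped.

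The low count of Rps6 goes with reads in its copies. Pseudogenes whose sequence matched a member best, at 80% identity or more over at least 50% of their length, numbered 1673. The search took in pseudogenes annotated as processed and as unprocessed, which were not separated. All of them are called processed copies, or copies, throughout. Of the members, 82 had at least 1, and 1047 copies held a count. Of the reads counted for Rps6 and its copies together, 97.4% were assigned to the copies. In 39 members the copies held over 50% of such reads and in 17 over 90%, while in 18 they held under 10%. Only uniquely aligned reads were counted, and the table does not show from which locus a read of near-identical sequence came. Summed, the copies took 1.95% to 2.29% of all counts after DMSO and 1.63% to 1.96% after ABT-263, and the ratio of copies to members was 0.706 to 0.710 after DMSO and 0.725 to 0.750 after ABT-263, without overlap. Of 321 copies tested, 20 rose (6.23%) and 69 fell (21.5%), with a median log2 fold change of -0.31. Over all genes tested the shares were 12.4% and 11.7%.

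Stretches of 30 coding bases of 3 members and of the copy with most reads, cut from GENCODE M21 transcripts, show how alike the pairs are; capitals mark the bases that differ.
Rpl3 (gene at chr15:80077791-80091868, minus strand; transcript bases 122 to 151): gggcttcctgcctcgCaagcgcagcagccg
Rpl3-ps1 (chrX:13202571-13203780, plus strand): gggcttcctgcctcgAaagcgcagcagccg
Rps7 (gene at chr12:28630854-28635953, minus strand; transcript bases 214 to 243): cgagcgccaagatcgTgaagcccaatggcg
Gm6472 (chrX:152909505-152910155, minus strand): cgagcgccaagatcgGgaagcccaatggcg
Rpl14 (gene at chr9:120571444-120574654, plus strand; transcript bases 500 to 529): cctgaaagcttctccCaaAaaagcagctgt
Rpl14-ps1 (chr7:45324965-45325617, plus strand): cctgaaagcttctccTaaGaaagcagctgt
Over their whole alignment Rpl3 and Rpl3-ps1 were 99.8% identical (2 mismatches in 1210 bases), Rps7 and Gm6472 99.5% (3 in 582) and Rpl14 and Rpl14-ps1 98.9% (4 in 656, with 1 gap).

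In these 3 pairs the member passed the test and the copy did not. The pairs were picked by hand, so they do not show how often a member and its copy differ. In Rpl26 and Rps28 the copy with most reads was called lower, as the member was (Gm15772, log2 fold change -0.64, edgeR adjusted p = 0.0220, and Gm10443, -0.78, adjusted p = 0.0280). Rpl3-ps1 was at 477.7, 433.7, 452.5 and 384.0 CPM after DMSO and 368.0, 390.6 and 311.4 CPM after ABT-263 (log2 fold change -0.29 ± 0.15, edgeR adjusted p = 0.194), several times the count of Rpl3 itself, and Rpl3 rose. Added together, Rpl3 and its copies stood at 535.3, 495.7, 507.9 and 436.3 against 467.8, 488.0 and 416.9 CPM, which overlapped (log2 fold change -0.12, adjusted p = 0.598). Gm6472 was at 262.0, 257.8, 247.0 and 227.7 CPM after DMSO and 271.9, 250.5 and 259.4 CPM after ABT-263 (0.07 ± 0.13, adjusted p = 0.719), while the sum of Rps7 and its copies went from 308.9 ± 23.7 to 396.9 ± 42.7 CPM (0.36, adjusted p = 0.107). Rpl14-ps1 averaged 479.4 ± 54.8 and 480.1 ± 75.1 CPM (0.00 ± 0.17, adjusted p = 0.993), and the sum of Rpl14 and its copies was not called (-0.39, adjusted p = 0.179). Differences between a copy and its member were not tested.

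With the reads of all copies added to each member, 18 of 83 members were called, 0 higher and 18 lower. The share called over all genes in that fit is not given here, so these counts cannot be set against it. None of the 5 members that rose alone passed as a sum. Rpl3 was at -0.12 on the log2 scale and its groups overlapped, while the sums of Rpl7 (447.3 to 550.9 CPM after DMSO and 608.3 to 654.1 CPM after ABT-263, log2 fold change 0.33, edgeR adjusted p = 0.137), Rps7 (0.36, adjusted p = 0.107), Rpl7a (85.7 to 110.5 against 113.4 to 142.0 CPM; 0.40, adjusted p = 0.0778) and Rpl10 (7.24 to 10.9 against 11.3 to 13.8 CPM; 0.52, adjusted p = 0.0899) did not overlap between the groups. Of the 20 falls, 13 passed, among them Rpl13, Rpl21, Rpl26, Rpl28, Rpl35a, Rpl37a, Rplp1, Rps15, Rps21, Rps24, Rps28 and Rpsa. Rpl38, Rps12, Rps13, Rps27a and Rps29 were called lower only as sums. Rps13 with its copies, for example, stood at 321.8, 299.8, 335.2 and 289.2 against 166.4, 193.3 and 123.8 CPM (-0.96 on the log2 scale), and Rps27a with its copies at 141.3, 129.9, 135.6 and 131.6 against 83.9, 85.5 and 66.7 CPM (-0.78). Both were named after their values were seen. By subunit, 8 large and 10 small subunit sums fell. Where copies held few reads, the sum could by construction differ little from the member alone. Rplp1, with 0.0180% of reads in copies, had a log2 fold change of -0.83 both ways. Rpl21, with 15.1% in copies, was at -0.96 as a sum and -1.09 alone.

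**Figure D4:**
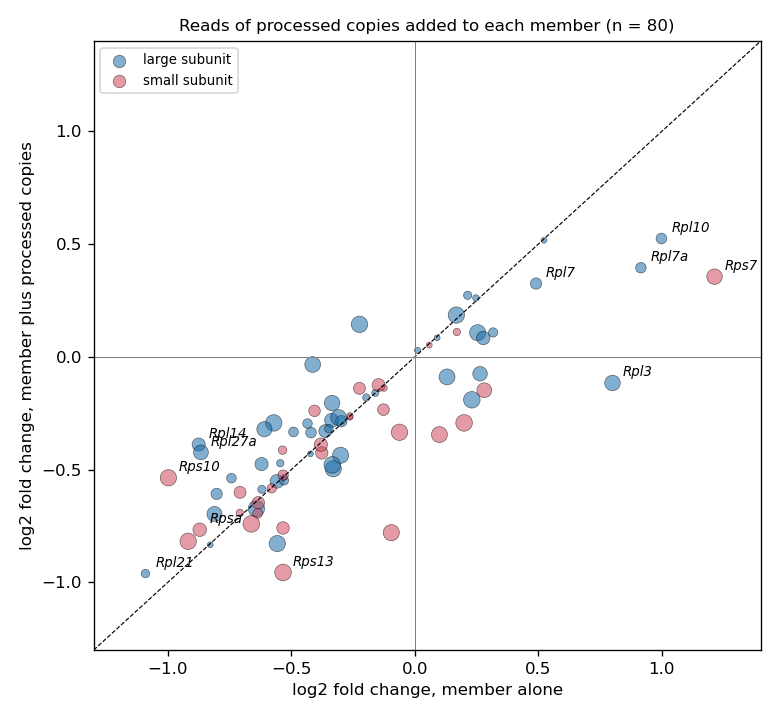
Log2 fold change of members alone (x axis) and with the reads of their processed copies added (y axis), n = 80; colour gives the subunit, point size grows with the percent of reads in copies, and the dashed line marks equal values. The 5 members that rose alone lie below the line, with Rpl3 at 0.80 alone and -0.12 as a sum.

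How many reads a member was given also went with how much of its transcript is unlike the rest of the transcriptome. The share of 75-base windows of the transcript that occur in no other annotated gene ran from 1.48% to 100% over the tested members. Over the 77 core members, the mean level in CPM per kilobase had a Spearman correlation of 0.66 with that share, given as a description since members share libraries and sequence. Rplp1 had the highest level, 4534 CPM per kilobase, and Rpl8 reached 2744 with 95.1% of its windows its own. Rps6, with 15.9% of its windows its own, was at 6.92 CPM per kilobase and Rpl10, with 8.14%, at 8.50. Levels of members cannot be ranked as amounts of mRNA from these counts. The log2 fold change had a Spearman correlation of -0.12 with the same share (n = 83), of 0.24 with transcript length, of -0.27 with GC content and of -0.28 with mean CPM, as descriptions.

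**Figure D5:**
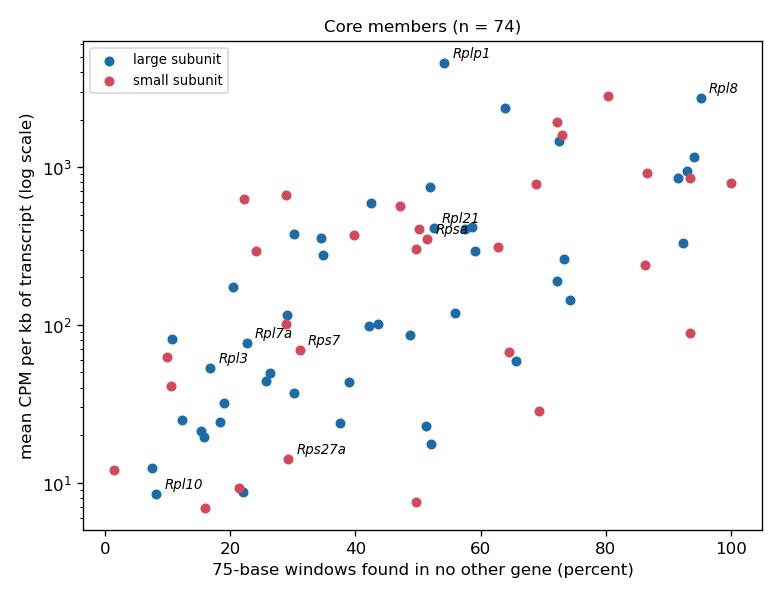
Mean level of core members over the 7 mice in CPM per kilobase of transcript (y axis, log scale) against the percent of its 75-base windows found in no other gene (x axis), n = 74, coloured by subunit. Members with few windows of their own, such as Rpl10 at 8.50 CPM per kilobase, lie low, and Rplp1 lies highest at 4534.

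Members have short transcripts, with a median of 681 bases. Among the 1200 protein-coding genes tested whose transcript had up to 1000 bases, the median log2 fold change was -0.29, with 22.5% called lower and 6.33% higher. In genes of over 2000 and up to 4000 bases these values were 0.10, 7.25% and 14.8%. The members' values of -0.36, 24.1% and 6.02% lay near those of the short genes, which include the members of that length. With each library's trend on length and GC content removed, 20 members were called, 17 of them among the 25.

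Of the paralogs, only Rpl36al was called, from 35.7 ± 4.72 to 23.2 ± 5.47 CPM (log2 fold change -0.62 ± 0.19, edgeR adjusted p = 0.0474). Rpl3l, which replaces Rpl3 in heart and skeletal muscle, stood at 67.4, 122.2, 147.6 and 164.3 against 116.9, 100.6 and 183.0 CPM (0.09 ± 0.32, adjusted p = 0.860). Its lowest value was in mouse 480, with summed muscle markers of 44023 CPM, while the treated mice had lower summed muscle markers (31585 to 43841 CPM) and higher Rpl3l. Rpl39l, known from male germ cells, was at 7.82, 7.42, 9.19 and 12.7 against 19.5, 7.81 and 12.8 CPM (0.52 ± 0.32, adjusted p = 0.260). Rpl22l1 (-0.30 ± 0.17, adjusted p = 0.223), Rps27l, a p53 target (-0.26 ± 0.14, adjusted p = 0.188), and Rpl7l1 (0.01 ± 0.11, adjusted p = 0.951) also overlapped between the groups.

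The count of each paralog as a percent of its parent's was compared with a two-sided exact permutation test of the log2 ratio over the 35 splits of the mice, for which the smallest p is 0.0286, and adjusted over 6 pairs. Rpl7l1 was at 28.02%, 23.5%, 27.5% and 29.4% of Rpl7 after DMSO and 19.4%, 19.1% and 19.4% after ABT-263 (exact permutation p = 0.0286, adjusted p = 0.171). The groups did not overlap. Rpl7 was called alone (edgeR adjusted p = 0.0397) but not with copies added (adjusted p = 0.137), and Rpl7l1 was not called (adjusted p = 0.951). Which gene moved the ratio was not tested. Rpl39l relative to Rpl39 went from 4.07% ± 1.17 to 8.29% ± 3.65 (exact permutation p = 0.0857, adjusted p = 0.257). None of the 6 pairs passed after adjustment, and a single pair at the smallest p the design allows could not.

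Some ribosome components carry other symbols. Rack1, a scaffold on the small subunit with no sequence window in another gene, stood at 1368, 1209, 1208 and 1101 against 1438, 1325 and 1284 CPM (log2 fold change 0.14 ± 0.17, edgeR adjusted p = 0.565). Fau, which encodes a small subunit protein fused to a ubiquitin-like one, was at -0.02 ± 0.22 (adjusted p = 0.947), and neither was called. Of 18 other TOP mRNAs, which include both, 4 rose (22.2%) and 0 fell, with a median of 0.01. Over all genes tested, 12.4% were called higher and 11.7% lower. Tpt1 rose by a log2 fold change of 1.07 ± 0.22 (adjusted p = 0.0152), Pabpc1, the cytoplasmic poly(A)-binding protein, by 0.58 ± 0.16 (adjusted p = 0.0349) and Eef1a1, which brings aminoacyl-tRNA to the ribosome, by 0.68 ± 0.20 (adjusted p = 0.0404). Tpt1 and Eef1a1 have 59.4% and 58.3% of their windows to themselves and Pabpc1 88.8%; reads in copies of these genes were not added.

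Over the lists of TOP mRNAs, small nucleolar RNA hosts, translation factors, ribosome biogenesis and mTORC1 regulation together, 38 of 147 genes were called, 16 higher and 22 lower, a share near the 24.2% of all genes tested. By direction, 12.4% of all genes tested were called higher and 11.7% lower. Of 9 hosts of small nucleolar RNAs, 4 fell (44.4%) and 0 rose. Among them were Snhg8 (118.3, 111.0, 106.4 and 105.0 against 50.8, 70.6 and 37.7 CPM, edgeR adjusted p = 0.0130) and Snhg15 (log2 fold change -0.74 ± 0.18, adjusted p = 0.0233). Of 36 initiation factors, 2 rose (5.56%) and 7 fell (19.4%). Within eIF2, which delivers the initiator tRNA, Eif2s1 rose from 20.3, 20.7, 22.6 and 23.6 to 50.3, 41.4 and 51.5 CPM (1.13 ± 0.13, adjusted p = 0.00578) and Eif2s2 fell from 175.6, 170.8, 169.6 and 163.9 to 94.3, 113.7 and 75.8 CPM (-0.85 ± 0.16, adjusted p = 0.0114). Eif2b1, of its exchange factor, rose (0.48 ± 0.14, adjusted p = 0.0408) and Eif5b, which joins the subunits, fell (-1.18 ± 0.22, adjusted p = 0.0121). Of 8 elongation and release factors 2 rose, Gspt1 (0.95 ± 0.11, adjusted p = 0.00602) and Eef1a1, and 0 fell.

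Of 67 ribosome biogenesis genes, 6 rose (8.96%) and 9 fell (13.4%), near the 12.4% and 11.7% of all genes tested, with a median log2 fold change of 0.00. Gnl2 (0.56 ± 0.10, edgeR adjusted p = 0.0105) and Ddx21 (0.53 ± 0.11, adjusted p = 0.0161), both nucleolar, rose. Tcof1, a nucleolar cofactor of rRNA transcription (-0.98 ± 0.15, adjusted p = 0.00713), and Nop10, of the pseudouridylation complex (-0.68 ± 0.12, adjusted p = 0.00914), fell. Of 19 genes of mTORC1 and TOP regulation, 3 rose and 2 fell: Rheb, the GTPase that activates mTORC1, stood at 21.3, 43.3, 34.3 and 32.6 against 78.3, 56.0 and 83.03 CPM (1.14 ± 0.24, adjusted p = 0.0161), and Mtor and Myc (0.62 ± 0.13, adjusted p = 0.0162) also rose. Deptor, an inhibitor bound to mTOR, fell (-0.75 ± 0.20, adjusted p = 0.0324), as did Larp4b (-1.13 ± 0.17, adjusted p = 0.00713). Of 77 mitochondrial ribosomal protein genes, which have their own set of subunits, 2 rose (2.60%) and 24 fell (31.2%). Their median was -0.33 beside the -0.36 of the cytosolic set.

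The number of calls changed when single mice were left out. Such fits hold fewer mice, and the share called over all genes in them is not given here. The translation and biogenesis lists gave 14 to 36 calls in the same fits, also fewer than with all mice. Without one mouse at a time, 7 to 23 members were called, fewest without mouse 482 or mouse 478 (7 each), 8 without mouse 476 and 9 without mouse 483. Rpl3, Rpl7a, Rpl21, Rpl27a, Rps7, Rps10 and Rpsa passed in all 7 of these fits, Rpl10 in 2 and Rpl7 in 1. Of the genes that passed in all 7, only Rpl21 and Rpsa were also called with copies added.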

How the data were processed

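Skin RNA of 7 mice was sequenced, 1 library per mouse. The authors aligned reads to mm10 with STAR 2.7.9a and counted them per Ensembl gene (build 109) with featureCounts (Subread 1.6.2), keeping properly paired, uniquely aligned reads on the gene's strand and leaving out mitochondrial genes. The deposited counts were not normalized; a second table of variance-stabilized values was not used here. The labels and the study's methods name different RNA kits. Reads shared by near-identical genes are lost or split under such counting.

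Counts were tested with edgeR 4.0.16 in R 4.3.3 (TMM, filterByExpr, robust quasi-likelihood, no covariate), and the standard error is the log2 fold change over the square root of F. Alternatives were DESeq2 1.42.0, other filters and scalings, thinning, length and GC offsets, addition of processed copies and leaving out each mouse. The fit was tested on simulated data. Gene symbols, coordinates, transcript lengths and window uniqueness were taken from GENCODE M21 (GRCm38), where 55190 of 55450 identifiers had an entry. Copies were matched with BLAST+ 2.17.0. Library totals were 20344364 to 43562330. The edgeR p-values judge the difference between the treatments against the spread between mice.

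Named members were Rplp0, Rplp1, Rplp2, Rpsa, Rps6, the 5 smallest p-values per subunit and direction among called members, the most abundant of each subunit, every paralog, and members below the filter. In the other lists, the 2 smallest p-values per direction were named. Some genes that these rules pick are not reported here by name and are left out of the figures of single members; counts and medians include them. Members and lists were chosen with earlier results of these data known.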

Additional observations from a re-analysis of the deposited data

Results flagged for a closer look

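In 50 values examined in the DMSO group (Dixon's gap ratio for 4 mice, of which chance gives about 2.5), 5 had 1 mouse apart from the other 3. Rpl14 was highest in mouse 480 (607.9 CPM against 473.4 to 477.2; gap over range 0.972). Rpl10l had a count only in mouse 483 (ratio 1.00). Among cell type markers, the summed basal keratinocyte level was highest in mouse 480 (31227 CPM; 0.910), the hair follicle level in mouse 481 (1013 CPM against 22.8 to 26.7; 0.996) and the adipocyte level in mouse 483 (2435 CPM; 0.855). Without mouse 480, 20 members were called, and every treated mouse was below every control in Rpl14.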

How the results depend on the processing

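No paired analysis was possible because the mouse numbers of the 2 treatments are not shared. For the settings other than the main fit, the share called over all genes is not given here. The members called numbered 25 by edgeR, 34 by the DESeq2 Wald test, 23 with DESeq2 size factors, 25 with TMM computed without the members, 17 with every gene that had a count, 26 with at least 10 counts in every library, 25 among protein-coding genes alone, 24 after thinning, 20 with length and GC offsets and 18 with copies added. By subunit, the counts that moved by over 1.5 times were 14 small subunit members by DESeq2 (1 higher and 13 lower), 10 large subunit members with every gene that had a count, and 8 with copies added. With copies added, the difference in the share of counts (ABT-263 minus DMSO) went from -0.581 to -0.919 percentage points, by construction since more reads are summed, and the difference in the ratio of large to small subunit turned from -0.0204 to 0.0698. For members alone, the mean log2 level of the large minus the small subunit differed by 0.10 (ABT-263 minus DMSO). That is opposite in sign to the -0.0204 of the ratio of counts.

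Leaving out each mouse gave 7 to 23 members called, 4 to 14 of the large and 3 to 9 of the small subunit, medians of -0.44 to -0.23 and -0.48 to -0.32, share differences of -0.710 to -0.460, ratio differences of -0.0295 to -0.00504, 0 paralog pairs in each fit, and 14 to 36 genes called in the translation and biogenesis lists (38 with all mice). None of the reversals of single genes concerned a called difference except Rpl3, at -0.12 with copies. Rpl7l1 turned to -0.0235 among protein-coding genes and -0.0141 with length and GC offsets, and lay at -0.0201 to 0.0532 when single mice were left out. Rps6 turned to -0.29 with copies and lay at -0.15 (without mouse 477) to 0.37 (without mouse 478), and Rpl3l at -0.20 (without mouse 478) to 0.28 (without mouse 477). The Rpl3l to Rpl3 log2 ratio turned to 0.23 with copies, and that of Rps27l to Rps27 lay at -0.11 (without mouse 476) to 0.19 (without mouse 477). Apart from settings whose construction gives it, the cause was not tested. Thinned to the smallest library, 24 of the 25 calls were kept, and 3 mice in 1 group limit all tests.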

Other observations

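Copies of one member did not all share a direction. The following were picked from the 2 copies with most reads per member after their values were seen. Rpl3-ps2, 98.8% identical to Rpl3, rose from 1.06 ± 0.266 to 4.54 ± 0.879 CPM (log2 fold change 2.10, edgeR adjusted p = 0.00628) while Rpl3-ps1 was not called. Gm9493, 99.5% identical to Rps7, rose from 14.8 ± 3.17 to 35.05 ± 7.80 CPM (1.24, adjusted p = 0.0103), as Rps7 did. Rpl7-ps7, 97.997% identical to Rpl7, fell from 76.4 ± 4.12 to 57.3 ± 7.15 CPM (-0.41, adjusted p = 0.0468) where Rpl7 rose, and Rpl7a-ps5 fell (-0.90, adjusted p = 0.0329) where Rpl7a rose. Rpsa-ps10 (-0.56, adjusted p = 0.0381) and Rpsa-ps1 (-1.17, adjusted p = 0.00747) fell with Rpsa, and Rps10-ps1 (-0.71, adjusted p = 0.0312) with Rps10.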
